A study of Homo sapiens with 12 samples.

Results

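The cholesterol and fatty acid synthesis genes described here are 35 genes, taken by symbol from a count table of 57704 endogenous genes. Of these 35, 6 belong to the mevalonate pathway, 11 to the steps from squalene to sterol, 5 to the control of the sterol-responsive transcription factors, 5 to sterol transport and 8 to acyl-CoA and fatty acid synthesis. They were read in 12 libraries of the established kidney-derived line HEK293, which here carries a stable reporter joining an endogenous intronic sequence to DARP-EGFP. Both groups carried that reporter. A total of 6 libraries came from cells given a pool of siRNAs against SUPT4H1 and 6 from cells given scrambled siRNAs, each at a final concentration of 100 nM. All 12 transfections were made side by side from 1 culture, and RNA was taken after 72 hours from 1000000 cells. P-values therefore measure the spread between transfections of that culture. ERCC RNA standards went into every lysate, mix 1 with scrambled siRNA and mix 2 with SUPT4H1 siRNA, so the mix and the treatment cannot be told apart. The series asked how loss of SUPT4H1, a subunit of the transcription elongation factor DSIF, affects a repeat-containing reporter.

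Cells make cholesterol from acetyl-CoA through mevalonate, isoprenoid units, squalene and lanosterol, and use the same acetyl-CoA for fatty acids. Genes of both pathways are classic targets of the SREBP transcription factors, encoded by SREBF1 and SREBF2, which SCAP escorts from the endoplasmic reticulum to the Golgi for cleavage. When sterols are plentiful, INSIG proteins hold SCAP and SREBP in the endoplasmic reticulum.

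Each library counted tags at the 3′ ends of polyadenylated RNA (QuantSeq forward kit), with between 7337033 and 20269171 endogenous counts per scrambled library and between 6591194 and 11366971 per SUPT4H1 library. The RNA integrity number was 9.9 to 10 with scrambled siRNA and 9.6 to 10 with SUPT4H1 siRNA. Levels below are CPM, counts in every 1000000 endogenous counts after TMM scaling, which sets libraries on a common relative scale. SUPT4H1 itself was at 175 to 199 CPM with scrambled siRNA and at 17.9 to 22.8 CPM with its own siRNA, 8.84-fold lower (edgeR, adjusted p = 2.57e-17). Of 5 genes known to be active in HEK293 cells, 4 reached 1 CPM and TUBB3 was at 0 in every library, and their summed level was 1190 to 1730 CPM in the scrambled and 877 to 1020 CPM in the SUPT4H1 group. No marker of hepatocytes (5), adipocytes (4), leukocytes (3) or endothelial cells (3) reached 1 CPM, while 4 of 4 fibroblast markers did, at a summed 6.32 to 12.2 CPM and 5.35 to 11.4 CPM. The part of these levels in the results was not tested.

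Promoter stretches are printed for 7 members whose values carry the results below, from RefSeq (GRCh38.p14), 120 bases each, 5′ to 3′ on the gene's strand. All 7 lie just upstream of the gene's outermost annotated start. The directions named for these members here hold for relative abundance. Scaled to the ERCC standards of subgroup B, as described below, all 7 members had a log2 fold change below 0. SREBF1, INSIG1, MVD and IDI1 were called lower on that scale. HMGCS1, SREBF2 and TM7SF2 were not called, and TM7SF2 stood at −0.07 ± 0.32 SE (edgeR, adjusted p = 0.84). Capitals mark the sterol response element core TCACNCCAC or the CCAAT box, on either strand, so that ATTGG is a CCAAT box on the other strand. SREBF2 and SREBF1 encode the SREBP factors and moved in opposite directions, and their stretches lie at chr22:41832959-41833078 (plus strand) and chr17:17837003-17837122 (minus strand). INSIG1, at chr7:155297656-155297775 (plus strand), encodes the retention protein that fell most. TM7SF2, at chr11:65111725-65111844 (plus strand), had the largest rise. MVD at chr16:88663162-88663281 (minus strand), IDI1 at chr10:1049171-1049290 (minus strand) and HMGCS1 at chr5:43313513-43313632 (minus strand) belong to 1 pathway and differed in direction.
SREBF2: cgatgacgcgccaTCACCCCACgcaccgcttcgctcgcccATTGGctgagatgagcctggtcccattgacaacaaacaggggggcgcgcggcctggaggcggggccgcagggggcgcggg
SREBF1: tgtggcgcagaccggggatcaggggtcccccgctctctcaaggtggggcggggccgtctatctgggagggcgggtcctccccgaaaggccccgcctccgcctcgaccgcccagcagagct
INSIG1: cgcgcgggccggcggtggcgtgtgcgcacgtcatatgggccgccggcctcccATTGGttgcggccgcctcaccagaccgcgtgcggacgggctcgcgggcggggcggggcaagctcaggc
TM7SF2: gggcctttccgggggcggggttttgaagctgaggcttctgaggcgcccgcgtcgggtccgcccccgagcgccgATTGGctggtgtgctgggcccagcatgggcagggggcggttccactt
MVD: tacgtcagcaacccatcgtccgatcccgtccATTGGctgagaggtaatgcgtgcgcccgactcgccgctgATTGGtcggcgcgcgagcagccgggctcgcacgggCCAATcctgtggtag
IDI1: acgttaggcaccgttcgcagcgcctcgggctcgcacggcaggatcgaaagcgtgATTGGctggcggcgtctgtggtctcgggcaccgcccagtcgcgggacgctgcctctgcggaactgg
HMGCS1: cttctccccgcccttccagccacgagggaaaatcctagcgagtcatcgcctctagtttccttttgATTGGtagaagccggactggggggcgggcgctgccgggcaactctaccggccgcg

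Windows of 300 bases (250 before to 50 after a start) were found for 30 of the 35 members. A gene can have more than 1 window, and a match in any of them counted. CCAAT, searched on both strands, lay in at least 1 window of 21 of 30 members (70.0%) and of 39.72% of 27305 genes with a window. By outcome below, it was present in 6 of 9 members that rose, 4 of 7 that fell and 11 of 12 that were tested and not called. DHCR7, ACACA and FADS2, all not called, had no CCAAT in the window nearest their outermost annotated start and counted through another window. The split by outcome thus depends on this counting rule. The core TCACNCCAC was found only in SREBF2 among the members (1 of 30) and in 1.39% of genes. A looser form, TCANNCCAC, which includes the former, was found in INSIG1, SREBF2 and ACLY (3 of 30) and in 4.74% of genes. These are letter matches in a fixed window, not measured binding.

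Relative to the rest of the mRNA, 11 members rose and 9 fell of the 33 with enough counts to test (edgeR quasi-likelihood test, adjusted p under 0.05 over 13811 genes), but scaled to the spike-in standards of subgroup B all 11 of the risen members lay below 0. None of these 11 was called on the spike-in scale (edgeR, adjusted p 0.1 to 0.84). The called share was 60.6% of members against 40.2% of all genes tested. Rises made up 33.3% of members against 20.0% of genes, and falls 27.3% against 20.2%. The members' median log2 fold change was −0.04, and that of all genes was 0.00. A change of at least 1.5-fold was called in 4 members (SREBF1, ABCG1, INSIG1 and TM7SF2), 12.1% against 15.8% of genes. INSIG1 stayed called but was under 1.5-fold without scrambled siRNA replicate 2 (1.44-fold), SUPT4H1 siRNA replicate 3 (1.49-fold) or SUPT4H1 siRNA replicate 4 (1.48-fold). For 10 members, 5 higher and 5 lower, no SUPT4H1 library reached into the scrambled range, 30.3% against 20.4% of genes.

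Scaled to the 23 ERCC standards of subgroup B, whose nominal ratio between the mixes is 1, 20 of the 33 members fell (60.6%, against 59.0% of genes) and 0 rose (0.311% of genes), with 0 higher at an unadjusted p under 0.05 in edgeR. No other tool was run on this scale. Their median log2 fold change was −0.85, beside −0.82 over all genes, which is 56.7% of the scrambled level. This shift of −0.82 separates both scales, and relative changes are to be read against it. The labels give the same cell number for every lysate, but the files hold no measure of it, so fewer cells and less RNA per cell cannot be told apart in these bulk libraries. The ERCC standards of all subgroups made up 0.7932% of the counts in SUPT4H1 siRNA replicate 5, inside the scrambled range of 0.5744% to 1.071%. They made up 1.481% to 2.449% in the other SUPT4H1 libraries, so the shift was not even across that group. Without SUPT4H1 siRNA replicate 5, 32 members fell on the spike-in scale, and with subgroup C in place of B only 6 did. With subgroup C the members' median was −0.52, TM7SF2 stood at 0.24 and SCAP at −0.01, so 32 of 33 were below 0. TM7SF2 was also not below 0 with all 4 subgroups or without scrambled siRNA replicate 4 or SUPT4H1 siRNA replicates 1, 3 or 6. Every statement below that members lay below 0 refers to subgroup B and gives the sign only, not a call. The shift of −0.82 is larger in size than the largest relative rise among the members, 0.76.

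**Figure D1:**
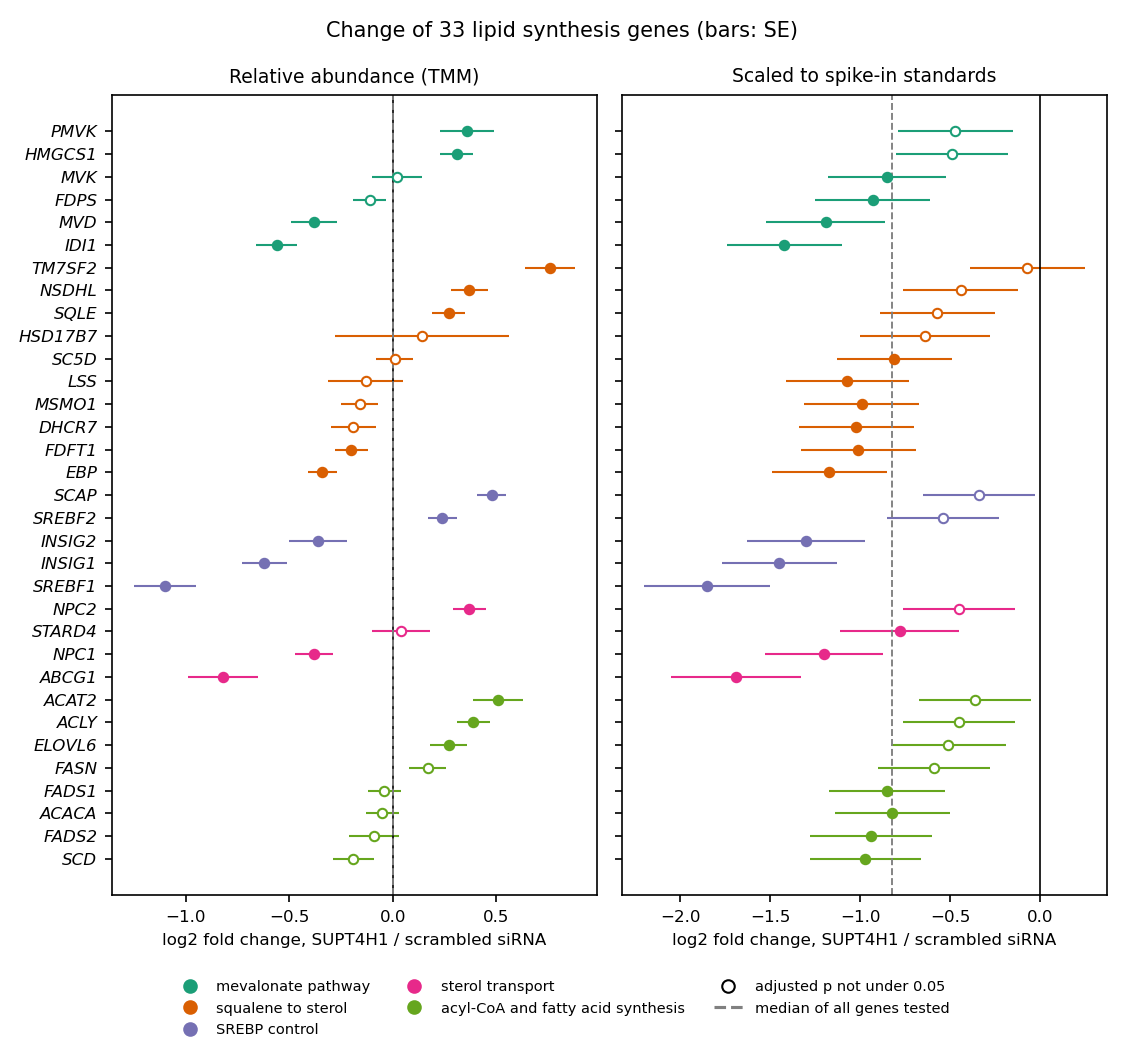
Log2 fold change (SUPT4H1 over scrambled siRNA) of the 33 tested members by role, with the standard error as bars, for relative abundance (left) and scaled to spike-in standards (right). Filled points have an adjusted p under 0.05 and the dashed line is the median of all genes tested, 0.00 and −0.82: members lie on both sides of 0 on the left, and all 33 lie below 0 on the right, where subgroup B sets the scale (32 of 33 with subgroup C).

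Among the genes of SREBP control, all 5 were called, with SREBF1, INSIG1 and INSIG2 lower and SREBF2 and SCAP higher in relative terms, although both of the latter were below 0 after spike-in scaling. SREBF1 was at 10.5, 12 and 15 CPM (lowest, median, highest) with scrambled siRNA and at 3.86, 5.88 and 6.93 CPM with SUPT4H1 siRNA. Every SUPT4H1 library was below every scrambled one. This was the lowest value among the members, 2.15-fold lower (log2 −1.10 ± 0.15 SE, adjusted p = 5.8e-06), and 27.7% of the scrambled level when scaled to spike-ins. Its 3′ end lies within RAI1 on the opposite strand, and the strand setting of the counting is not given in the sources used here. SREBF2 was at 125, 131 and 148 CPM with scrambled and 144, 162 and 176 CPM with SUPT4H1 siRNA. The groups overlapped at their edge, with a rise of log2 0.24 ± 0.07 (adjusted p = 0.01).

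SCAP, the escort protein, was at 79.1, 83.7 and 90.4 CPM with scrambled and 101, 120 and 126 CPM with SUPT4H1 siRNA. The groups were apart, 1.39-fold higher with SUPT4H1 siRNA (adjusted p = 2.5e-05), but on the spike-in scale SCAP stood at log2 −0.34 ± 0.31 and was not called. INSIG1 was at 83.5, 91.5 and 125 CPM in the scrambled and at 51.5, 59.0 and 79.1 CPM in the SUPT4H1 group. It fell 1.54-fold without overlap (adjusted p = 0.00023), and the high scrambled value was a single library, replicate 2. INSIG2 overlapped between groups (14.1 to 25.3 CPM and 11 to 16.5 CPM), with a log2 change of −0.36 ± 0.14 and an adjusted p of 0.048 that ranged from 0.027 to 0.14 over 20 alternatives.

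**Figure D2:**
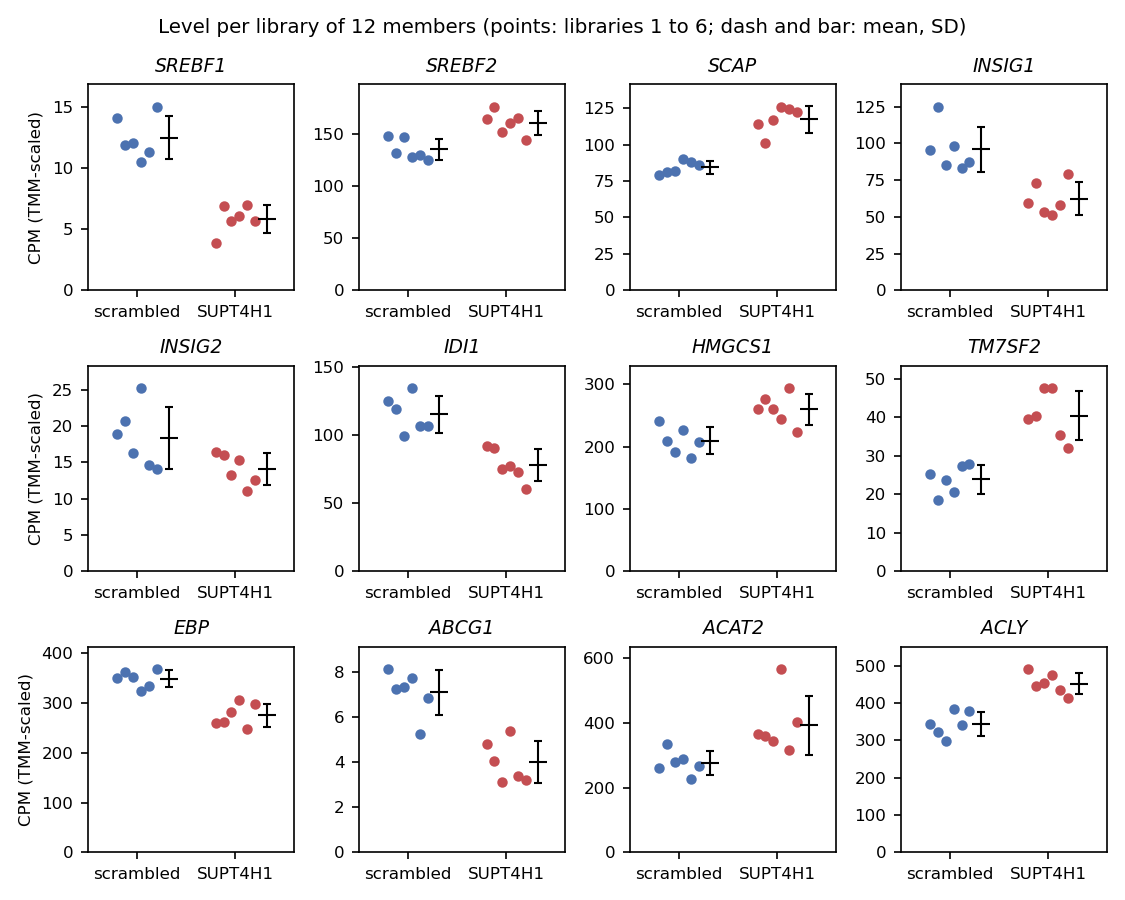
CPM (TMM-scaled) of 12 members in each of the 6 scrambled and 6 SUPT4H1 siRNA libraries, with the mean as a dash and the SD as a bar, on axes that start at 0. SREBF1, INSIG1, IDI1 and EBP are lower and SCAP, TM7SF2 and ACLY higher in every SUPT4H1 library on this relative scale, while spike-in scaling by subgroup B puts all 12 below 0 (TM7SF2 is above 0 with subgroup C).

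The 6 mevalonate genes split, with 2 higher, 2 lower and 2 not called in relative terms, and all 6 were below 0 after spike-in scaling. HMGCS1, which makes the precursor of mevalonate, was at 182, 208 and 242 CPM with scrambled and 224, 260 and 295 CPM with SUPT4H1 siRNA. It rose 1.24-fold (adjusted p = 0.0054) with overlapping libraries. IDI1, the isomerase of the isoprenoid unit, was at 99.1, 113 and 135 CPM in the scrambled and 60.2, 76.3 and 92.2 CPM in the SUPT4H1 group. No libraries overlapped, and the fall was 1.47-fold (adjusted p = 0.00014).

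MVD, the decarboxylase just before IDI1, fell 1.30-fold (adjusted p = 0.0091), from a median of 20.6 to 15.8 CPM with overlap at the edge. PMVK, a kinase of the pathway, rose 1.28-fold (adjusted p = 0.028). Its adjusted p reached 0.076 when a single library was left out (SUPT4H1 siRNA replicate 3), and was 0.061 with the replicate number as a block. MVK, the first kinase, had a log2 change of 0.02 ± 0.12, and FDPS, which makes farnesyl pyrophosphate, −0.11 ± 0.08. Neither was called. HMGCS1, IDI1 and FDPS end inside a gene on the opposite strand.

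From squalene to sterol, 3 of 10 tested genes rose, 2 fell and 5 were not called, and all 10 were below 0 after spike-in scaling. TM7SF2, a sterol reductase, was at 18.5, 24.4 and 27.9 CPM with scrambled and 31.9, 40.0 and 47.7 CPM with SUPT4H1 siRNA. The groups did not overlap, with a relative rise of 1.69-fold (adjusted p = 3.3e-05) and 95.2% of the scrambled level on the spike-in scale, the nearest to no change among the members, and it was above 0 with subgroup C. TM7SF2 overlaps VPS51 on its own strand, although its 3′ end lies outside that gene. The part of this overlap in its counts was not tested. EBP, the sterol isomerase, was at 323, 352 and 369 CPM with scrambled and 247, 271 and 305 CPM with SUPT4H1 siRNA. It fell 1.27-fold without overlap (adjusted p = 0.00077).

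SQLE, the squalene epoxidase, was at 82.9 to 105 CPM with scrambled and 106 to 132 CPM with SUPT4H1 siRNA. These ranges did not overlap, with a rise of 1.21-fold (adjusted p = 0.0086). NSDHL, which acts in sterol demethylation, rose 1.29-fold (adjusted p = 0.0018) with overlapping libraries. FDFT1, the squalene synthase, was at 167 to 196 CPM and 126 to 168 CPM, a log2 change of −0.20 ± 0.08 with an adjusted p of 0.044. That call was kept in 6 of 20 alternatives and lost, among others, when TMM factors were computed before the filter on low counts. LSS (−0.13 ± 0.18), MSMO1 (−0.16 ± 0.09), SC5D (0.01 ± 0.09) and DHCR7 (−0.19 ± 0.11) had log2 changes that were not called.

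HSD17B7, a further enzyme of sterol demethylation, varied most within groups. It ranged from 1.56 to 7.85 CPM with scrambled and from 2.81 to 9.36 CPM with SUPT4H1 siRNA, so its log2 change of 0.14 carried an SE of 0.42. Over all tested members the SD of log2 CPM within a group had a median of 0.15 (scrambled) and 0.18 (SUPT4H1). CYP51A1, the lanosterol demethylase, had 1 count in all 12 libraries and was not tested. It overlaps CYP51A1-AS1 on the opposite strand, which held 6 counts, and in GENCODE 29 also AC000120.2 and AC000120.3 on its own strand, which were not analysed here. How tags at this locus were assigned was not tested, and the count does not show that the gene is off.

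Among the sterol transport genes, NPC2 rose and ABCG1 and NPC1 fell in relative terms, while all 4 tested were below 0 after spike-in scaling. ABCG1, a sterol exporter, was at 5.26, 7.30 and 8.16 CPM with scrambled and 3.13, 3.74 and 5.38 CPM with SUPT4H1 siRNA. A single library of each group overlapped, and the fall was 1.77-fold (adjusted p = 0.00059). NPC1 and NPC2 hand cholesterol out of the lysosome, and neither overlapped between groups. NPC1 was at 21.6 to 27.2 CPM and 16.4 to 19.9 CPM, 1.30-fold lower (adjusted p = 0.0032), and its 3′ end lies within RMC1. NPC2 was at 76.5 to 97.8 CPM and 103 to 130 CPM, 1.29-fold higher (adjusted p = 0.0012).

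STARD4, a cytosolic sterol carrier, had a log2 change of 0.04 ± 0.14. ABCA1, the other exporter, was too low to test, with 21 counts over the scrambled and 2 over the SUPT4H1 libraries. Per endogenous count this is a ratio of 6.23 (exact 95% interval 1.52 to 54.8, covering counting error only).

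Of the 8 acyl-CoA and fatty acid genes, 3 rose, 0 fell and 5 were not called in relative terms, with 0 lower at an unadjusted p under 0.05 in edgeR and 0 called lower by DESeq2, but all 8 were below 0 after spike-in scaling. ACLY, which makes cytosolic acetyl-CoA from citrate, was at 299, 343 and 383 CPM with scrambled and 414, 448 and 492 CPM with SUPT4H1 siRNA. The groups were apart, 1.31-fold higher with SUPT4H1 siRNA (adjusted p = 0.00033). ACAT2, the cytosolic acetoacetyl-CoA thiolase, was at 227, 272 and 336 CPM and 315, 364 and 568 CPM. The highest value was SUPT4H1 siRNA replicate 4, and the log2 change of 0.51 (adjusted p = 0.003) was 0.38 without it. ACAT2 ends inside TCP1 on the opposite strand, which fell by 0.29 on the log2 scale (adjusted p = 0.011).

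ELOVL6, a fatty acid elongase, rose 1.21-fold (adjusted p = 0.019), with an adjusted p of up to 0.069 under the alternatives. FASN, the fatty acid synthase, was at 189, 238 and 256 CPM and 210, 260 and 294 CPM, a log2 change of 0.17 ± 0.09 that was not called, except without SUPT4H1 siRNA replicate 6 (adjusted p = 0.023). ACACA, the acetyl-CoA carboxylase, stood at −0.05 ± 0.08. The desaturases SCD (−0.19 ± 0.10), FADS1 (−0.04 ± 0.08) and FADS2 (−0.09 ± 0.12) were not called either. FADS1 ends inside FADS2.

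**Figure D3:**
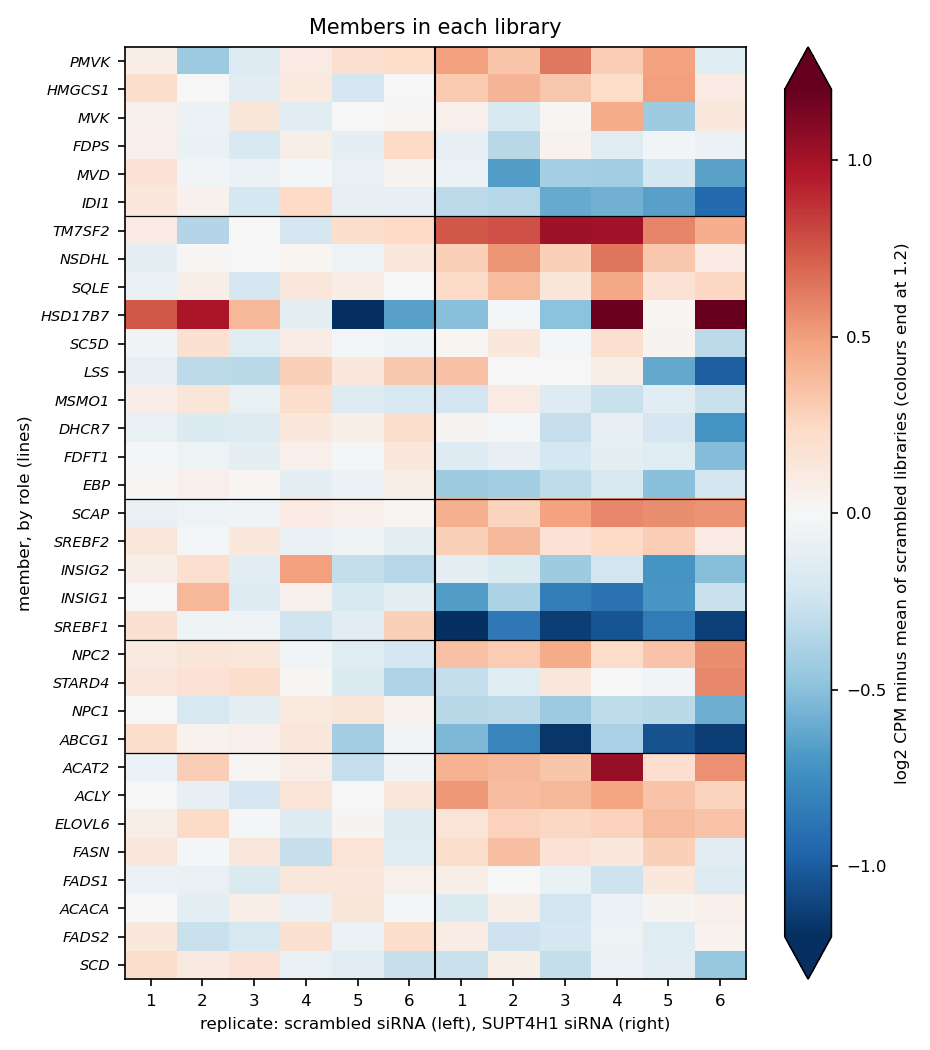
Log2 CPM of each tested member in each library minus its mean over the scrambled libraries, with members in rows by role and the 6 scrambled (left) and 6 SUPT4H1 (right) libraries in columns. On this relative scale the median of the 11 risen members lies between 0.27 and 0.47 in every SUPT4H1 library and that of the 9 fallen members between −0.65 and −0.33, whereas all 33 are below 0 after spike-in scaling by subgroup B (32 of 33 with subgroup C).

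Ratios of counts between members of 1 library do not depend on how libraries are scaled. The 5 pairs were picked after their values were seen, so the ratios are a description. SREBF1 to SREBF2 was 0.0817 to 0.12 with scrambled and 0.0235 to 0.0419 with SUPT4H1 siRNA. INSIG1 to SCAP was 0.95 to 1.54 and 0.409 to 0.719. Both ratios were lower in every SUPT4H1 library. IDI1 to HMGCS1, inside the mevalonate pathway, was 0.515 to 0.596 and 0.248 to 0.355. SQLE to FDFT1 went the other way, 0.486 to 0.581 and 0.661 to 0.9, as did TM7SF2 to EBP, 0.051 to 0.0822 and 0.107 to 0.169.

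**Figure D4:**
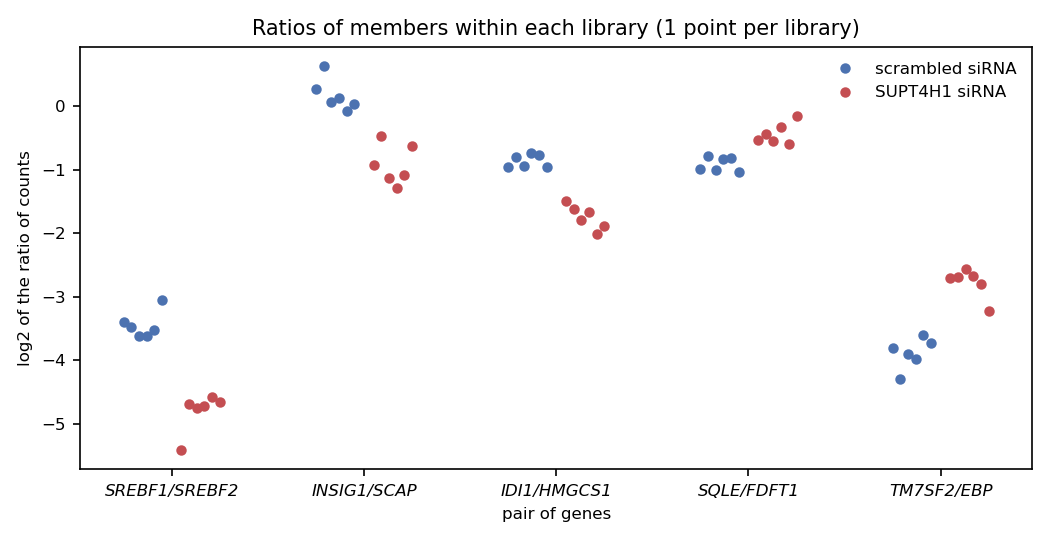
Log2 of the ratio of counts of 5 pairs of members, with 1 point for each of the 6 scrambled and 6 SUPT4H1 siRNA libraries. The groups do not overlap for any of the 5 pairs: SREBF1/SREBF2, INSIG1/SCAP and IDI1/HMGCS1 are lower and SQLE/FDFT1 and TM7SF2/EBP higher with SUPT4H1 siRNA.

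Across the 33 tested members, Spearman's rho between gene length and relative log2 fold change was 0.05, beside 0.06 over 13789 genes. This is a description across genes, which share their libraries and are not independent.

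Other genes of these pathways were read from 4 lists of 72 genes, of which 65 were tested, 18 rose and 13 fell in relative terms. The called share was 47.7% against 40.2% of all genes, with 27.7% against 20.0% risen and 20.0% against 20.2% fallen. SREBP processing and sterol sensing had 4 risen and 5 fallen of 15, and isoprenoid branches 3 and 2 of 11. Sterol handling and accessory enzymes had 5 and 1 of 14, and the other acyl-CoA and fatty acid genes 6 and 5 of 25. A change of at least 1.5-fold was called in 5, 7.69% against 15.8% of all genes. SOAT1, which esterifies cholesterol, rose by log2 1.13 (adjusted p = 1.5e-08), from 16.5 to 20.8 CPM with scrambled to 35.1 to 48.8 CPM with SUPT4H1 siRNA. ACSL4, an acyl-CoA synthetase, rose by log2 1.16 (adjusted p = 0.00026). After spike-in scaling they stood at 0.30 (adjusted p = 0.39) and 0.44 (adjusted p = 0.22), and neither was called. The elongase ELOVL7 rose by 0.77, and stood at 0.01 when scaled to spike-ins, and the desaturase SCD5 rose by 0.68 but stood at −0.13. ACSS2, which makes acetyl-CoA from acetate, had a log2 change of −0.60 (adjusted p = 0.0088). Its libraries overlapped at a low level, 5.52 to 7.66 CPM with scrambled and 3.09 to 5.78 CPM with SUPT4H1 siRNA. After spike-in scaling ACSS2 stood at −1.53 (adjusted p = 0.00027).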

How the data were processed

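The authors deposited whole-number counts per gene, with 92 ERCC standards and 1 GFP row, both left out of library sizes here. The submitters' processing notes name STAR, FastQC 0.11.5, MultiQC, R 3.4.3 and the build GRCh38.p10. No source used here names the counting tool or its strand setting, so members that overlap another gene are uncertain (21 overlap a gene on the opposite strand, and 8 have their 3′ end inside another gene). Some members overlap a gene on their own strand, among them TM7SF2 (VPS51) and FADS2 (FEN1), which a strand setting would not separate. Positions came from GENCODE 29 (GRCh38) and promoters from RefSeq.

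Genes were filtered by filterByExpr, then scaled by TMM, and tested with edgeR 4.0.16 (quasi-likelihood, robust) in R 4.3.3, 6 against 6 libraries without covariates, with Benjamini-Hochberg adjustment over 13811 genes and a threshold of 0.05. This order follows the stated design. Other orders were also run, and 1 of them (TMM before the filter, 13820 genes) was for a time used for all tables, after its calls had been seen. It is kept as an alternative added after seeing the data. FDFT1 is called in the first and not in the second.

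Which ERCC standard belongs to which subgroup was listed from general knowledge, without a product table. Subgroups C and D were at first exchanged in it and were relabelled after comparison with the counts, so their fit to the nominal ratios is no independent check. Subgroup B was not affected.

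The members and lists were chosen with earlier results of these data known. Every member is named. Of the other lipid genes, those called with at least 1.5-fold are named. Alternatives were DESeq2 1.42.0, RLE and upper-quartile factors, no filter, at least 1 CPM in 6 libraries, the replicate number as a block, RNA integrity as a covariate, other spike-in subgroups and leaving out each library. No 2 libraries of a group agreed within sampling noise (30 pairs, chi-square per degree of freedom 4.57 to 36.6). Scripts were tested on simulated data.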

Additional observations from a re-analysis of the deposited data

Results flagged for a closer look

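In 4 of 66 sets of 6 values (33 members in 2 groups), 1 library stood far from the others (gap over range above Dixon's 95% critical value), where chance gives about 3.3. FDFT1 was at 126 CPM in SUPT4H1 siRNA replicate 6, below 155 to 168 in the others. MSMO1 was at 70.2 CPM in SUPT4H1 siRNA replicate 2, above 54.2 to 59.4. INSIG1 was at 125 CPM in scrambled siRNA replicate 2, above 83.5 to 98.3. ACAT2 was at 568 CPM in SUPT4H1 siRNA replicate 4, above 315 to 402.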

How the results depend on the processing

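Of the 20 members called on the relative scale, 16 kept the call in all 20 alternatives, and FDFT1, INSIG2, PMVK and ELOVL6 did not. FDFT1 had an adjusted p of 0.044, and of 0.053 with TMM factors before the filter, an order added after seeing the data. Among single libraries left out, PMVK lost its call without scrambled siRNA replicates 2 or 3 or SUPT4H1 siRNA replicates 1, 3 or 5. INSIG2 lost it without scrambled siRNA replicates 1 to 4 or SUPT4H1 siRNA replicates 2 to 6, and FDFT1 without any library other than scrambled siRNA replicates 2 and 3. TMM before the filter gave 2806 risen and 2734 fallen genes, beside 2768 and 2789. Leaving out 1 library gave 10 to 12 risen and 7 to 8 fallen members, and 8 to 13 fallen other lipid genes (8 without SUPT4H1 siRNA replicate 5). Other lipid genes that fell numbered 13, 8 with no filter on low counts and 7 with RNA integrity as a covariate. On the spike-in scale, subgroup C gave 69 risen and 2226 fallen genes and 6 fallen members, against 43, 8152 and 20. Leaving out 1 library there gave 28 to 62 risen genes (28 without scrambled siRNA replicate 6), 5650 to 12320 fallen genes and 14 to 32 fallen members (12320 and 32 without SUPT4H1 siRNA replicate 5). The cause was not tested.

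With the replicate block, 10 members rose and 8 fell, and PMVK and FDFT1 lost the call. The numbers did not pair the libraries (correlations of deviations −0.29 to 0.05, with 0 of 6 libraries closest to their own number). By summed counts the lowest tested members were HSD17B7, ABCG1, SREBF1 and LSS, where counting error weighs most. ABCA1 and CYP51A1 had too few counts to test.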
